A study of Mus musculus with 6 samples.

Results

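One hour of oxygen after 3 h of chronic hypoxia was followed in B16 cells, an established mouse melanoma line, by setting the array of cells reoxygenated for 1 h against the array of cells collected at the end of hypoxia, 2 of the 6 arrays of the series. The measurements described are those of probe sets whose mean signal over all 6 arrays was 100 units or more, 5476 of 22626 without control probe sets (24.2%). They stand for 3573 genes, each given below by the brightest of its probe sets unless another is named. Values under 2.1 units were set to 2.1 before log2 was taken, and a difference is called at 2-fold or more (1 on the log2 scale). Each side is 1 array, so no difference has an error of its own and none was tested.

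The groups of the series were chronic hypoxia + 1 h reoxygenation, chronic hypoxia, cyclic hypoxia + 1 h reoxygenation, cyclic hypoxia, normoxia + 1 h and normoxia, with 1 array each. All cultures had been in serum-free medium for 2 h before the exposure. Hypoxia was under 1% oxygen. Chronic hypoxia lasted 3 h without a break, and cyclic hypoxia was 3 periods of 1 h separated by 30 min of oxygen. The normoxia + 1 h array is from cells kept another hour in serum-free medium without any change of oxygen. With 1 array each, what that hour did cannot be told apart from differences between arrays.

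In oxygen, prolyl hydroxylases mark the alpha subunits of HIF, the hypoxia-inducible transcription factor, for destruction, so that HIF protein is lost soon after air returns. Transcripts that HIF has raised, such as those of glucose transport and glycolysis, are then lost at the pace of their own decay. Returning oxygen is also known to load the cell with reactive oxygen species and to restart protein synthesis and energy use, and short-lived transcripts of growth and stress signalling can answer it within minutes.

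The label of the cells was borne out by their markers. Of 8 pigment cell markers 7 were on the array, and 7 had a mean signal of 100 or more, with a summed signal of 24770 after the hour and 23631 before it (18938 to 21969 in the other arrays). None of 31 markers of other cell types reached a mean of 100. Their summed signals after and before the hour were 60.6 and 42.6 for fibroblasts, 88.7 and 97.1 for immune cells, 39.7 and 31.3 for endothelium, and 18.6 and 28.8 for keratinocytes. The arrays had trimmed means of 100 and medians of 15.9 to 19.3 units. The ratio of the 3' to the 5' control probe set of actin was 1.25 after the hour and 1.25 before it. The 18 control probe sets for added hybridisation RNAs were all brighter on the reoxygenation array, by a median of 0.30 on the log2 scale, and their part in the results was not tested.

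The hour moved few transcripts far. Of the 5476 probe sets 21 (0.383%) were 2-fold or more higher after reoxygenation and 12 (0.219%) lower, and 96.0% lay within 1.5-fold. Counted by genes, 11 of 3573 (0.308%) were higher and 6 (0.168%) lower. The hour in normoxia gave 0 higher (0%) and 12 lower (0.219%) probe sets. The SD of all differences was 0.29 for the hour of reoxygenation, against 0.24 for the hour in normoxia. Of the 33 called probe sets 20 had a mean signal between 100 and 200, and none of the lower ones reached 500. Below the mean of 100 the hour counted 1729 higher and 1471 lower of 17150, where the hour in normoxia counted 1032 and 1778, so dim genes are given below only by their values.

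**Figure D1:**
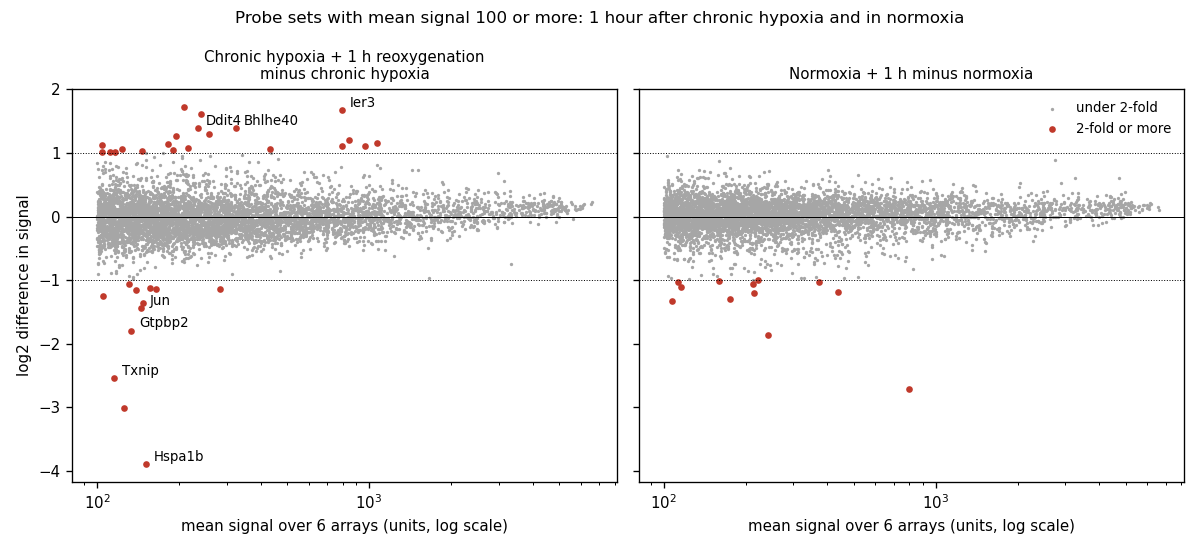
Log2 difference in signal (vertical axis) against the mean signal over the 6 arrays (horizontal axis, log scale) for the 5476 probe sets, after chronic hypoxia (left) and over the same hour in normoxia (right). Red points are 2-fold or more apart. Hspa1b and Txnip reach -3.89 and -2.54 on the left, and the 12 red points on the right all lie below 0.

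Among the most raised genes were Ier3, an early response gene that modulates survival and MAP kinase signalling, Bhlhe40 (Dec1), a basic helix-loop-helix repressor, and Ddit4 (Redd1), an inhibitor of mTORC1. The lowest were Hspa1b, an inducible Hsp70 chaperone, and Txnip, which inhibits thioredoxin and glucose uptake. Promoters of those 5 genes were looked up in RefSeq's table for GRCm38.p6, and 4 matched, Bhlhe40 having no entry. The 250 bases before the start site are shown because the 5 genes are the 3 highest and the 2 lowest of the hour and belong to responses with known binding motifs. Capitals mark ACGTG, the core of the HIF response element, in Ier3 (chr17:35821463-35821712, plus strand) and Ddit4 (chr10:59951771-59952020, minus strand). In Hspa1b (chr17:34959239-34959488, minus strand) they mark GAANNTTC, a heat shock element. In Txnip (chr3:96557707-96557956, plus strand) they mark CACGAG, a repeat unit of the carbohydrate response element.
Ier3: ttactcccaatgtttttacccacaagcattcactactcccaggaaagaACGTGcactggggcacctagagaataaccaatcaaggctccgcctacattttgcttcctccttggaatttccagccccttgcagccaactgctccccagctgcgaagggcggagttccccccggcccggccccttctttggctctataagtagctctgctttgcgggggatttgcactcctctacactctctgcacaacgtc
Ddit4: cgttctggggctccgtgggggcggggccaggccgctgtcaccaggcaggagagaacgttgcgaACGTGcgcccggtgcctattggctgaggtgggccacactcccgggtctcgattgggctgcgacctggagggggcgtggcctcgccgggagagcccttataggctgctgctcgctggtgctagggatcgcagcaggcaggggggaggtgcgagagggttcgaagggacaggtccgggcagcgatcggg
Hspa1b: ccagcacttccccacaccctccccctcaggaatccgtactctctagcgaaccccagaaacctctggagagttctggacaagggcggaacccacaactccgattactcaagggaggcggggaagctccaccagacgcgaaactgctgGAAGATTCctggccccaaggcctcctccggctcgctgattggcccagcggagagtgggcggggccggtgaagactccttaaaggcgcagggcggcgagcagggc
Txnip: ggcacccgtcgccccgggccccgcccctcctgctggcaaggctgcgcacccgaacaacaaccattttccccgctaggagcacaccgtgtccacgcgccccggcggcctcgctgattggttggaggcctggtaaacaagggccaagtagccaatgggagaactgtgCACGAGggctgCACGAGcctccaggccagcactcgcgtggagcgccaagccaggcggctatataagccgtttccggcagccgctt
Both strands were searched. ACGTG starts 202 bases before the start site in Ier3 and 187 bases before it in Ddit4, and 16.6% of the 32841 promoter windows hold it, or 24.3% of the 3781 windows of genes in the set. GAANNTTC starts at 104 bases in Hspa1b (6.70% of all windows and 5.21% of those of the set). CACGAG, chosen after the sequence was seen, starts at 85 and 74 bases in Txnip (5.37% and 6.98%). CACGTG, the canonical E-box, which contains ACGTG, is in none of the 4 windows, in 6.02% of all and in 9.79% of those of the set. A match describes letters only.

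Ier3 was the highest gene of the hour. Its signal was 1846 after reoxygenation, against 577 at the end of chronic hypoxia, 909 and 623 after and before the hour that followed cyclic hypoxia, and 430 and 378 in normoxia + 1 h and normoxia, a log2 difference of 1.68 over the hour. At the end of hypoxia it was 0.61 above normoxia, so the reoxygenation array stands apart from the other 5. From a whole culture, more cells with the transcript and more transcript in each cell cannot be told apart.

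Bhlhe40 and Ddit4 are both known as HIF targets, and both went on upward when oxygen returned. Bhlhe40 had a signal of 879 after reoxygenation and 335 before it, with 224 and 199 after and before the hour in the cyclic regime and 160 and 144 in the normoxia arrays, a difference of 1.39. Ddit4 had 656 after and 250 before, with 143 and 128 in the cyclic regime and 126 and 106 in normoxia, also 1.39. For both, the end of chronic hypoxia was the second highest of the 6 arrays, and the other 4 lay close together. The hour in normoxia gave 0.16 for Bhlhe40 and 0.25 for Ddit4.

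**Figure D2:**
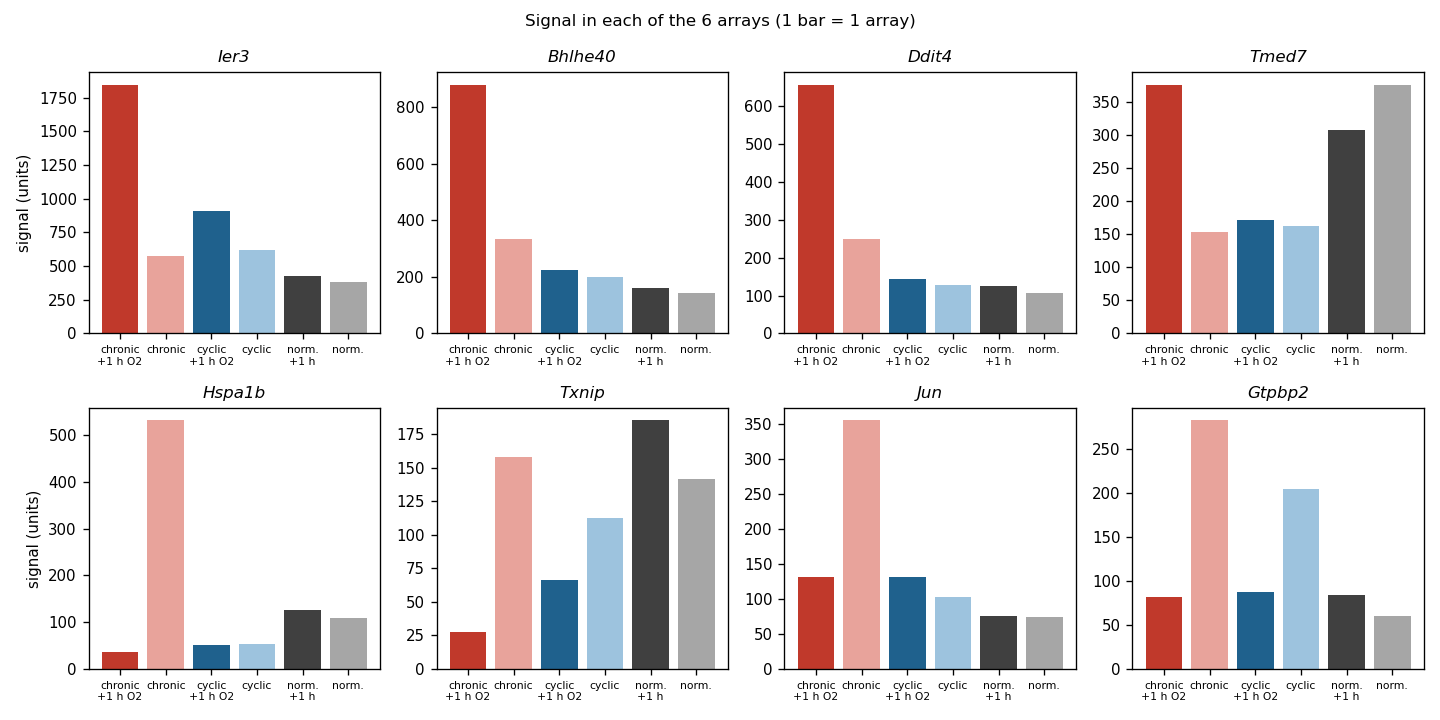
Signal in units (vertical axes from 0) of 8 genes in each of the 6 arrays, 1 bar per array, with O2 for reoxygenation and norm. for normoxia. Ier3, Bhlhe40 and Ddit4 stand at 1846, 879 and 656 after chronic hypoxia and reoxygenation, above their other 5 arrays, Tmed7 returns to its normoxia level, and Hspa1b, Jun and Gtpbp2 are high at the end of chronic hypoxia.

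Some dimmer genes outside the 5476 also stood higher, while other dim HIF targets were lower. Vegfa, the vascular growth factor, had 160 units after reoxygenation and 66.4 before, against 28.7 in normoxia + 1 h and 35.1 in normoxia, a difference of 1.27 (0.35 at a second probe set). Adm, the vasodilator adrenomedullin, had 30.7 units after and 6.43 before, with 0.77 to 3.87 in the other 4 arrays. Per1, a circadian repressor that is also an early response gene, had 56.6 units after and 27.0 before, and it was also higher after than before the hour in the cyclic regime (39.6 and 13.0). The dim HIF targets Pdk1, Egln3 and Slc16a3 were lower, at -0.95, -0.99 and -0.43. Egln3 had only 7.73 units after and 15.4 before, and its second probe set gave 1.18. Pfkfb3, Maff and Slc2a3, also dim, were higher, at 0.76, 0.39 and 0.18. The probe sets of Slc2a3 ran from -0.18 to 1.84.

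Most of the other genes called higher had been lower in hypoxia than in normoxia, and stood near or above it after the hour. Of the 21 higher probe sets 14 were below both normoxia arrays at the end of chronic hypoxia, and 17 were above both after reoxygenation. Both counts use the arrays by which these probe sets were called, so the choice favours them. Tmed7, a cargo receptor between endoplasmic reticulum and Golgi, had 375 units after and 153 before, against 308 and 376 in normoxia + 1 h and normoxia (1.30). Lamp2, a major protein of the lysosome membrane, had 1234 after and 537 before, against 1045 and 1224 (1.20).

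The others called higher serve varied functions. Ddr1, a collagen receptor kinase, differed by 1.15 (318 units after and 143 before). Wsb1, a ubiquitin ligase adaptor known to respond to HIF, differed by 1.06 (182 and 87.0). Dnajc3, a chaperone that also restrains the eIF2alpha kinases, differed by 1.05 (308 and 149). Birc6, an inhibitor of apoptosis with ubiquitin ligase activity, differed by 1.04 (232 and 113). The ubiquitin ligase Ubr4 differed by 1.02 (155 and 76.7) and the zinc finger protein Nfx1 by 1.12 (150 and 68.9). Just under the threshold were the cohesin subunit Rad21 at 0.997 (623 and 312), the paraoxonase Pon2 at 0.996 (162 and 81.2), the Ral exchange factor Rgl2 at 0.98 (144 and 73.1) and Marveld1 at 0.96 (295 and 152). Pon2 gave -1.33 at its other probe set, and the lowest probe sets of Rad21 and Marveld1 gave -0.25 and -0.28. Among the called genes, the other probe sets of Nfx1, both dim, gave -1.01 and -0.57. The 8 of Ddr1 ran from 1.48 to -2.68, the last at a probe set that ended below the floor. The lowest of Birc6, also dim, gave -0.20.

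Second probe sets of these genes often gave another value. The genes with a called higher probe set number 18, of which 10 have another in the set of 5476. None of their 23 other probe sets was 2-fold higher, 1 was 1.5-fold higher, and 16 were above 0. For Tmed7 the other value was -0.14 and for Dnajc3 0.16, while Lamp2 gave 0.43 and 0.19. Ier3, Bhlhe40, Ddit4, Wsb1 and Ubr4 have 1 probe set each on the array. Tm7sf3, Yipf5, Cnn3, Rpl7, Scpep1, Ywhaz and Srsf3 were called only at a probe set that is not their brightest. Yipf5 (1.72, with -0.21 at its brightest) and Cnn3 (1.62, with -0.13) show the spread, and these names were chosen after their values were seen.

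The normoxia arrays bear on such genes. Over the hour in normoxia 12 probe sets were 2-fold or more lower, and all 12 were above 0 over the hour of reoxygenation (0.13 to 1.62), 2 of them 2-fold or more. Of these 12, 9 have an identifier that ends in _s_at or _x_at, which marks probes that may bind several transcripts. Across the 5476 probe sets the differences over both hours, which share no array, had a correlation of -0.33. Probe sets are not independent replicates and lie on the same arrays, and the cause was not tested. With the normoxia difference taken off, 131 probe sets were 2-fold or more higher and 42 lower.

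Hspa1b was the lowest gene. It had 35.8 units after reoxygenation and 532 before, with 52.0 and 52.5 after and before the hour in the cyclic regime and 126 and 108 in normoxia + 1 h and normoxia, a difference of -3.89. The end of chronic hypoxia was thus the highest array and the array 1 h later the lowest. Hspa1b passed the mean of 100 only through that high array, since its mean over the 4 arrays outside the comparison was 84.7 units. Its other probe sets, the only others that name it, gave -3.00 (43.6 and 350 units) and -3.35 (20.5 and 209 units). Hspa1a, a near-identical neighbour, may share these probes, so the split between both genes is uncertain.

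Txnip fell below all other arrays. It had 27.2 units after reoxygenation and 158 before, with 66.1 and 113 in the cyclic regime and 186 and 142 in the normoxia arrays, a difference of -2.54. A dim second probe set had 0.93 units after and 27.3 before, so it ended below the floor. Unlike Hspa1b, Txnip stood within the range of the normoxia arrays at the end of hypoxia, 0.16 above normoxia, and 1 h later it was 2.77 below normoxia + 1 h. This was also the largest gap below that array among the 3573 genes, where only Txnip and Hspa1b (-1.81) were 2-fold or more lower.

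Gtpbp2, Jun, Hmga2 and Tnrc6a completed the 6 genes called lower, and all 4 had been above normoxia at the end of hypoxia. Gtpbp2, a ribosome rescue GTPase and ATF4 target, had 81.3 units after and 282 before, against 83.4 and 59.9 in the normoxia arrays (-1.80). The other probe sets of Gtpbp2 gave -0.01 and -0.22, so its fall was seen at 1 of 3. Jun, an AP-1 subunit, had 130.5 units after and 355 before, with 132 and 103 in the cyclic regime and 75.9 and 74.6 in normoxia (-1.44). Its mean over the 4 arrays outside the comparison was 96.3 units, so it too passed the filter through the array where it was high. Its second probe set gave -0.85, and Jun stayed 0.78 above normoxia + 1 h. Hmga2, a chromatin protein of embryonic and tumour cells, had 109 and 241 units (-1.15), and its other probe sets gave -0.83 and -0.45. Tnrc6a, a scaffold of microRNA silencing, had 117 and 254 units (-1.13), with 8 probe sets from -1.13 to 0.38.

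Below these came 9 genes that did not reach 2-fold. The chloride transporter Clcn5 was at -0.97 (104 and 204 units), the translation regulator Bzw2 at -0.88 (76.6 and 141), the nuclear noncoding RNA Malat1 at -0.88 (113 and 208), the sugar nucleotide enzyme Uap1l1 at -0.86 (330 and 599) and the TWEAK receptor Tnfrsf12a at -0.81 (95.6 and 167). Malat1 has 5 probe sets, which ran from -0.88 to 2.11. Tbpl1, a relative of the TATA-binding protein, was at -0.80 (94.9 and 165), and Mxi1, a MYC antagonist, at -0.79 (228 and 394). Gemin7 of the SMN complex was at -0.76 (74.9 and 127), and Abhd12, a lysophospholipid lipase, at -0.76 (141 and 240). Malat1 and Mxi1 passed the filter on mean signal only through the chronic arrays, where they were high at the end of hypoxia. Outside those arrays Malat1 had 10.4 to 142 units and Mxi1 81.6 to 113. All 15 lowest genes had stood above normoxia at the end of hypoxia, 6 of them 2-fold or more, which uses the array that chose them and which the choice favours. Nfkbia, the inhibitor of NF-kB, was called at a probe set that is not its brightest (-1.15), with -0.51 at the brightest and all 4 below 0. The dim Atf3, a stress-induced repressor, had 41.0 units after and 106 before, against 25.1 and 21.5 in the normoxia arrays (-1.37).

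**Figure D3:**
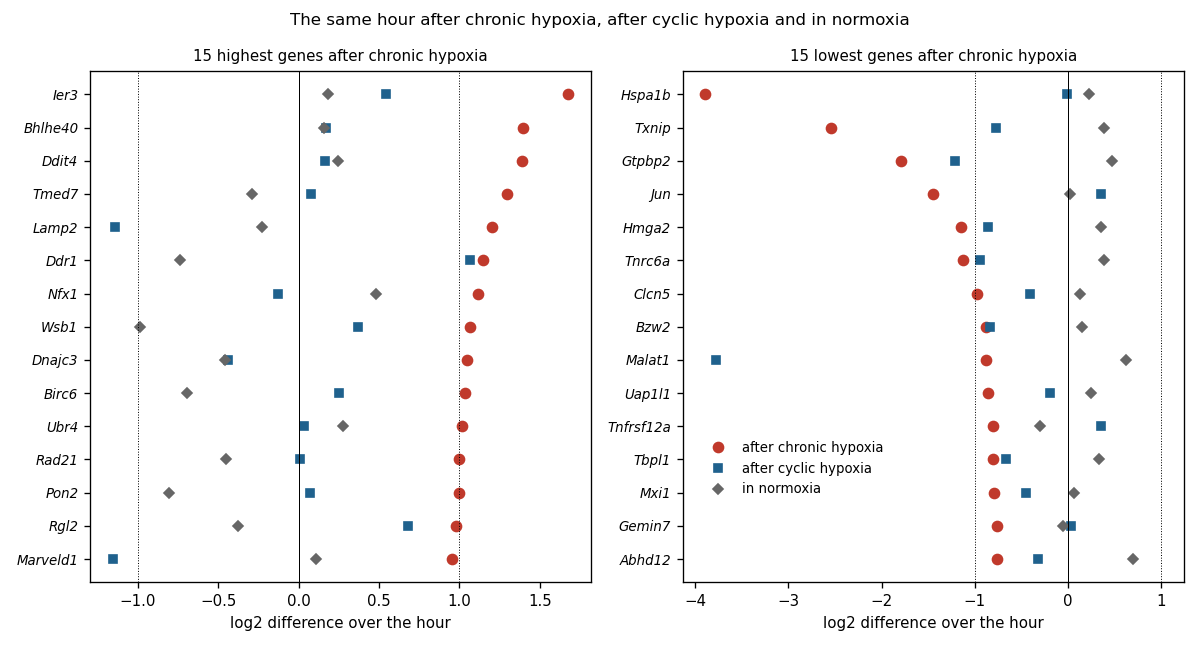
Log2 difference over the hour (horizontal axis) for the 15 highest (left) and 15 lowest (right) genes of the hour after chronic hypoxia, as circles, beside the same hour after cyclic hypoxia (squares) and in normoxia (diamonds), 1 array pair per symbol. Lamp2 is at 1.20 after chronic and -1.14 after cyclic hypoxia, and Hspa1b at -3.89 and -0.01.

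Most HIF targets that were 2-fold above normoxia at the end of hypoxia were still so after the hour, while the medians of both HIF lists over normoxia were lower. The mean signal that chose the set takes in both chronic arrays, which favours genes high on both. All 14 glycolysis genes in the set were within 1.5-fold over the hour, with 0 called in either direction and 4 above 0. Across the 3573 genes only 2.04% were higher by at least 1.5-fold and 1.34% lower by as much, so such a count is what most genes gave. Their median was -0.12, and that of all 3573 genes -0.03. Hk2, the hexokinase that commits glucose to the pathway, had 885 units after reoxygenation and 1279 before, against 164 in normoxia + 1 h and 165 in normoxia, a difference of -0.53 over the hour. Slc2a1, the glucose transporter GLUT1, had 578 and 793 units (-0.46), against 175 and 152 in normoxia. Pfkp, a phosphofructokinase subunit, had 272 and 370 units (-0.44), against 156 and 115.

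Abundant enzymes further down the pathway barely differed. Ldha, lactate dehydrogenase A, had 2519 units after and 2783 before (-0.14), the phosphoglycerate kinase Pgk1 had 3648 and 3683 (-0.01), and the aldolase Aldoa had 2617 and 2251 (0.22). Those are brightest probe sets, and the 3 of Pgk1 ran from -0.01 to 0.56. The dim Pdk1, a kinase that keeps pyruvate out of mitochondria, had 78.8 and 152 units (-0.95), and stood at 28.1 and 25.0 in normoxia. Over normoxia at the matching time the list had a median of 0.31 after the hour and 0.46 before it. There, 3 of the 14 genes were 2-fold or more higher after the hour, all of them among the 4 that were so before it.

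Of 23 other HIF targets in the set 2 were called higher, Bhlhe40 and Ddit4, 0 lower, and 19 lay within 1.5-fold, with a median of -0.08, where 0.308% of all genes were called higher and 0.168% lower. Over the matching normoxia array their median was 0.68 after the hour and 1.22 before it. Against the matching normoxia array 10 were 2-fold or more higher after the hour, all 10 being among the 12 before it. Bnip3, a mitophagy receptor, had 549 units after and 803 before (-0.55), against 123 and 127 in normoxia. Ero1a, an oxidase of protein folding, had 1223 and 1367 units (-0.16), against 264 and 210. The prolyl hydroxylase Egln1, which marks HIF for destruction, had 404 and 416 units (-0.05), but its second probe set gave -0.85.

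Some targets stood a little higher after the hour. The lipid droplet protein Hilpda had 339 units after and 258 before (0.39), against 75.1 and 83.5 in normoxia. The histone demethylase Kdm3a had 883 and 729 units (0.28), and Sap30, of the Sin3 repressor complex, had 454 and 375 (0.28), against 88.7 and 89.8. Ak4, a mitochondrial adenylate kinase whose mean of 96.2 lies just below the set, had 208 and 259 units (-0.32), against 15.4 and 13.0. Jmjd6, an oxygen-dependent hydroxylase, had 241 and 338 units (-0.49). Hif1a, the oxygen-regulated subunit of HIF itself, had 668 and 524 units (0.35). The probe sets of each of Ak4, Jmjd6 and Hif1a gave both signs. They ran from -0.65 to 0.94 for Ak4, from -0.49 to 0.40 for Jmjd6 and from -0.22 to 0.35 for Hif1a, so no direction is given for them.

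**Figure D4:**
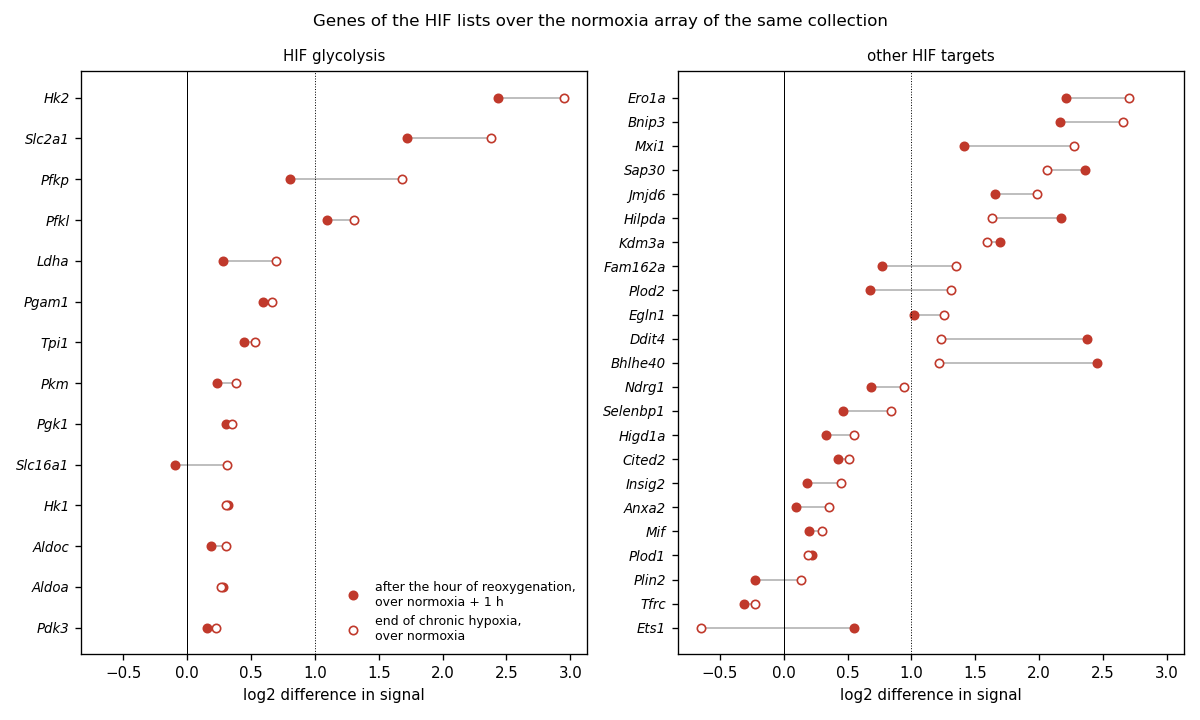
Log2 difference over the matching normoxia array (horizontal axis) for genes of both HIF lists with a mean signal of 100 or more, after the hour of reoxygenation (filled) and at the end of chronic hypoxia (open), 1 array pair per point. Hk2 is at 2.43 after and 2.95 before, while Ddit4 is at 2.38 after and 1.23 before.

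Genes outside the lists were counted in the same way. Set against normoxia at the matching time, 38 of 3573 genes (1.06%) were 2-fold or more higher after the hour, and 52 (1.46%) before it, and those contrasts share no array. The mean signal that chose the 3573 genes takes in both chronic arrays, however, so the choice favours genes high on both. The 26 genes in both are 68.4% of the first list and 50% of the second. Over the hour of reoxygenation 38 of the 52 were lower, a count that shares with their choice the array at the end of hypoxia, and 38 of the 52 were higher in normoxia + 1 h than in normoxia. Of the 52, 11 more were still 1.5-fold to 2-fold above normoxia after the hour and 15 were under 1.5-fold, 4 of which (Gtpbp2, Malat1, Tnrc6a and Hspa1b) had dropped below normoxia + 1 h. Their median was 1.01 after and 1.37 before.

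On the low side no gene was 2-fold lower at both collections. Of 14 genes 2-fold or more below normoxia at the end of hypoxia (0.392%) 0 were so after the hour, when 2 of 3573 genes (0.056%) were, and all 14 were less than 1.5-fold lower. Over the hour of reoxygenation 13 of the 14 were higher, but they were chosen by a low value on the array the hour is measured from, which favours that count. All 14 were also lower in normoxia + 1 h than in normoxia, so the normoxia level they are set against differed too.

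Early response genes of growth signalling went both ways. Of 15 in the set 1 was called higher (Ier3) and 1 lower (Jun), where 0.308% of all genes were called higher and 0.168% lower, and the median was -0.01. Fos, the partner of Jun in AP-1, had 264 units after and 230.4 before, against 55.7 and 55.6 in the normoxia arrays (0.19). Ccn1, a matrix protein of wound responses, had 244 and 206 units (0.25), and the nuclear receptor Nr4a1 had 519 and 431 (0.27). Fos and Ccn1 had both been more than 2-fold above normoxia at the end of hypoxia (2.05 and 2.33). Both remained so after the hour (2.24 and 2.80), while Jun came down. Fos and Ccn1 passed the filter on mean signal only through the chronic arrays, a choice that favours genes high on both. Outside those arrays Fos had 39.6 to 84.5 units and Ccn1 35.2 to 106.5.

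Egr1 and Myc differed between the regimes. Egr1, a zinc finger early growth factor, had 93.1 units after reoxygenation and 99.0 before (-0.09), but 333 and 43.7 after and before the hour in the cyclic regime. Myc, the growth regulator, had 197 units after and 109 before (0.85), but 35.0 and 92.0 in the cyclic regime. These differences between regimes were not tested. Each gene passed the filter on mean signal only through the array where it was highest, a choice that favours such a gap. On their other arrays Egr1 had 35.2 to 99.0 units and Myc 35.0 to 109. Of 8 genes of MAP kinase feedback 0 were called, as for most genes (0.308% higher and 0.168% lower over all), with a median of 0.22. Dusp6, a phosphatase of ERK, was their highest member at 0.71 (800.0 and 490 units), and Dusp16, a phosphatase of JNK and p38, their lowest at -0.60 (130.0 and 197).

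The stress lists split inside. Among 23 genes of the integrated stress response 0 were called higher and 1 lower, Gtpbp2, against 0.308% and 0.168% of all genes, with a median of -0.06. Ddit3 (CHOP), a death-linked transcription factor, had 720 units after and 420 before (0.78), against 177 and 137 in normoxia. Atf4, the factor that leads this response, had 1387 and 1415 units (-0.03) at its brightest of 3 probe sets, which ran from -1.17 to 0.40. Its target Trib3, a pseudokinase, had 338 and 320 (0.08). Over the matching normoxia array the list had a median of 0.48 after the hour and 0.68 before it, and Atf4 was at 0.77 and 1.03.

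Of 24 genes of the unfolded protein response 1 was called higher, Dnajc3, and 0 lower (0.308% and 0.168% over all genes), with a median of 0.09. Hspa5 (BiP), the main chaperone of the endoplasmic reticulum, had 3517 units after and 3022 before (0.22). Herpud1, which serves degradation from that compartment, had 647 and 676 units (-0.06), and Creld2, a secreted chaperone-like protein, was the lowest member at -0.30 (338 and 415).

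Of 16 heat shock chaperones 1 was called lower, Hspa1b, and 0 higher (0.168% and 0.308% over all genes), with a median of -0.17. Dnajb1, an Hsp40 partner of Hsp70, had 412 units after and 645 before (-0.65), against 460.0 and 330 in normoxia. Hsp90aa1, the inducible cytosolic Hsp90, gave both signs. Its brightest probe set had 1514 and 888 units (0.77), and 1237 and 1500 in normoxia, while its other probe sets gave -0.31 and -0.41, so no direction is given for it.

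Genes of the oxidative stress response lay mostly near 0. Of 25 in the set 1 was called lower, Txnip, and 0 higher (0.168% and 0.308% over all genes), with a median of 0.02. Heme oxygenase 1, Hmox1, had 164 units after and 187 before (-0.19), against 67.9 and 71.5 in normoxia. The thioredoxin reductase Txnrd1 had 523 and 482 units (0.12), and Gclc, which makes the first product of glutathione synthesis, 163 and 122 (0.42). The metallothioneins Mt1 (5366 and 5420 units, -0.01) and Mt2 (3440 and 2915 units, 0.24) lay near 0 too. These are brightest probe sets, and others differed. The 3 of Txnrd1 ran from -0.72 to 1.09, and a second probe set gave -0.26 for Gclc and 1.14 for Mt1.

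The remaining lists held 1 called gene, Lamp2 among 8 genes of apoptosis and autophagy, where 0.308% of all genes were called higher. Oxidative phosphorylation (37 genes) had a median of 0.03 and a range of -0.25 to 0.35, and the proteasome (28 genes) a median of -0.09 with 6 members above 0. Ribosomal proteins had a median of 0.16 with 26 of 27 above 0, led by Rpl27a at 0.73, where the hour in normoxia gave 0.14. That median was 0.025 after quantile normalization and 0.011 with the normoxia hour taken off. Pigment genes (18) had a median of 0.15, with Mitf, the master regulator of the lineage, lowest at -0.34 (2225 and 2820 units) and the myosin Myo5a highest at 0.58. Over all 25 lists with 5 or more members the medians lay between -0.23, for transcription elongation and chromatin, and 0.23, for iron handling. The lowest member on transcription was the bromodomain protein Brd2 at -0.64 (214 and 334 units), and the highest of iron handling the cytosolic aconitase Aco1, an iron sensor, at 0.81 (196 and 112).

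**Figure D5:**
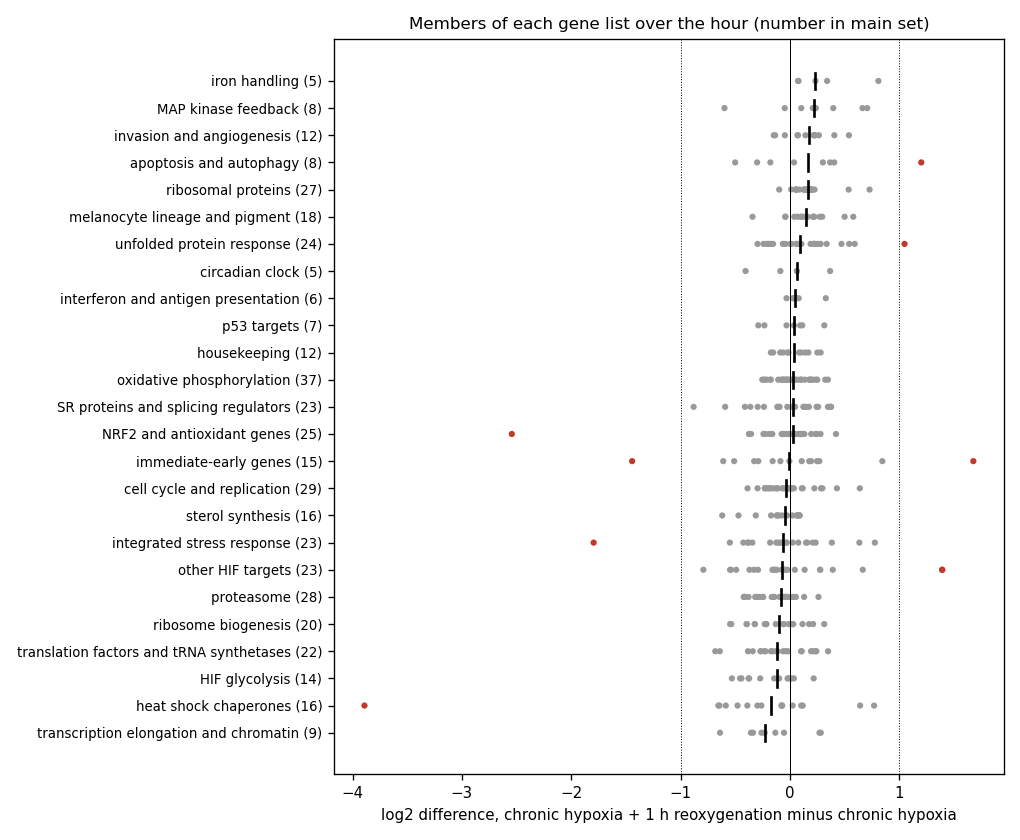
Log2 difference over the hour of reoxygenation (horizontal axis) of each member with a mean signal of 100 or more, for the 25 gene lists with 5 or more such members, with the list's median as a black bar. Red points are 2-fold or more apart, and every median lies between -0.23 and 0.23.

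Set beside the same hour after cyclic hypoxia, some of the calls recurred. After cyclic hypoxia 26 of the 5476 probe sets (0.475%) were higher and 334 (6.1%) lower. Of the 21 probe sets higher after chronic hypoxia 5 were also 2-fold higher there, among them Ddr1 (1.06) and the second probe sets of Ywhaz and Tm7sf3, and of the 12 lower 2 were also lower, Gtpbp2 (-1.22) and a probe set of Bzw1. By sign alone 16 of the 21 were above 0 there and 8 of the 12 below it. Ier3 was at 0.54 there, Bhlhe40 at 0.17, Ddit4 at 0.16, Txnip at -0.77 and Hspa1b at -0.01. Before the hour Hspa1b had 532 units and Ddit4 250 in chronic hypoxia, where cyclic hypoxia gave 52.5 and 128. The array after cyclic hypoxia and reoxygenation correlated least with the others (a mean of 0.929 over the set, against 0.958 to 0.966), and none of these differences between regimes was tested.

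At the edges of the definition, Brcc3 entered the set with a mean of 100.1 units and Zdhhc6 stayed out with 99.99, at -0.46 and 0.11 over the hour.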

How the data were processed

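The authors deposited 1 table of array signal intensities on a linear scale, with 1 column for each of the 6 arrays. Per the labels' protocols, 5 µg of total RNA was turned into biotinylated cRNA. The submitters' processing notes name GCOS; its algorithm and version are not given in the sources used here. Every column has a trimmed mean of 100 units, so the authors' scaling was kept.

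Probe sets were named through the platform annotation (20393 name 1 gene, 691 several, 1606 none) and updated by gene ID. Signals under 2.1 units were set to 2.1, log2 was taken, and arrays were subtracted. No test was made, since each group has 1 array. Array number limits the precision.

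The rule for naming genes took the 15 highest and 15 lowest of the set, the highest and lowest member of each gene list, and 62 fixed genes. Of 34 gene lists 30 had a member in the set. The rule gave 128 genes, of which not all are given above, and some genes outside it are. The set, lists and rule were chosen with earlier results of these data known. Of 832 list entries 742 matched the array. The script was tested on simulated data. Tools were Python 3.11.15, pandas 2.3.3 and numpy 2.4.6. Alternatives were other floors, filters, scalings, probe set rules and thresholds.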

Additional observations from a re-analysis of the deposited data

Results flagged for a closer look

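Lamp2 was 2-fold or more higher over the hour after chronic hypoxia (1234 and 537 units, 1.20) and 2-fold or more lower over the hour after cyclic hypoxia (325 and 716 units, -1.14), a gap of 2.34 on the log2 scale. The difference was not tested. A second probe set gave 0.43 after chronic and -1.65 after cyclic hypoxia.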

How the results depend on the processing

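The 21 higher and 12 lower probe sets became 13 and 10 on log2(value + 20 units), 38 and 22 with a mean signal of 50 or more, 12 and 1 with 200 or more, and 1750 and 1483 with no filter on the mean. They became 131 and 42 with the normoxia hour taken off, 135 and 82 at 1.5-fold, 11 and 6 counted with 1 probe set per gene, and 12 and 11 without probe sets ending in _s_at or _x_at. Quantile normalization and median centring each gave 28 and 12. The filter over the 4 arrays outside the contrast gave 20 and 9, the 3 lower ones lost being both of Hspa1b and 1 of Jun. Of 17 called genes 17 were still 2-fold the same way under either scaling and a floor of 20, 12 on log2(value + 20 units), 15 with the normoxia hour taken off and 9 by the median over a gene's probe sets, where Nfx1 turned to -0.57. That median takes in dim probe sets. Of all 128 named genes 0 moved under either scaling, but 59 moved with the normoxia hour taken off. By the median over a gene's probe sets 43 of the 128 moved and 1 reversed. Of 250 alternative list medians 249 stayed within the normoxia SD. Every main median lay between -0.23 and 0.23, no further from 0 than that SD, so this count could hardly come out otherwise. It also passes changes of sign, such as oxidative phosphorylation from 0.03 to -0.11 with the normoxia hour taken off. The 26 genes above normoxia at both collections were 22 to 27 under floors and scalings chosen after the data were seen. They were not counted under the filter over the 4 arrays outside the contrast. No paired analysis was possible because each group has 1 array and the groups share 1 replicate number. Signal limits the rest, since under a mean of 100 the normoxia hour alone gave 1032 higher and 1778 lower probe sets.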
